A study of Mus musculus with 12 samples.

Results

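The genes described here are the mouse cytochrome P450 genes of families 1 to 4, whose products in liver oxidise drugs, foreign chemicals, steroids, bile acids and fatty acids. They were chosen by gene symbol, with earlier results of these data known. The rule took a Cyp symbol with a family number from 1 to 4, read on probe sets annotated to a single gene. This gave 54 genes among 18193 genes on the array, carried by 67 probe sets. Where a gene had several, as 11 of the 54 did, its brightest probe set on average was used. Liver RNA of 12 mice was hybridised to Affymetrix arrays, in 4 groups of 3 separate animals. Wild-type (+/+) mice and Atf6a-/- mice, which lack the stress-sensing transcription factor ATF6α, received an intraperitoneal injection of tunicamycin (TM), 1 mg/kg in 150 mM dextrose, or of dextrose alone as vehicle. Livers were taken 34 h later, although another label field gives 8 h. TM blocks N-glycosylation and so disturbs protein folding in the endoplasmic reticulum (ER). The animals were of variable age and sex, their food was withheld for the last 4 h, and age and sex are not stated for each animal.

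P450 enzymes of these families sit in the ER membrane with the catalytic domain facing the cytosol, carry a heme group, and receive electrons from P450 reductase and cytochrome b5. Most are made in hepatocytes, where nuclear receptors such as CAR, PXR, PPARα and HNF4α, the aryl hydrocarbon receptor and C/EBP factors control their transcription. Several differ between the sexes, and many lie in clusters of closely related copies. In this set 11 Cyp2c genes lie on chromosome 19, 8 Cyp2d genes on chromosome 15 and 5 Cyp3a genes on chromosome 5. A probe set may bind transcripts of several copies of such a cluster, so the share of single paralogs within a subfamily is uncertain.

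Values are log2 array signals after RMA. The median over all probe sets of an array was at most 4.71, and 40 of the 54 genes had a mean over the 12 arrays above it. The other 14 had a mean below it, though single groups could lie above, and 12 of those 14 were not called in either response to TM. Probe sets with an s suffix, which can bind several transcripts, carried 3 of the 54 genes (Cyp2c23, Cyp2c65 and Cyp4v3), and none carried an x suffix. The Atf6 probe set read 8.54, 8.42 and 8.49 in wild-type vehicle livers and 6.88, 6.85 and 6.60 in Atf6a-/- vehicle livers. After TM the wild-type livers read 9.30, 9.72 and 9.49 and the Atf6a-/- livers 9.60, 9.81 and 9.23. The null livers were thus lower without stress and level with wild-type after TM, and whether this probe set lies in the deleted part of the gene is not given in the sources used here. The hepatocyte marker Alb averaged 14.27 to 14.77 over the 4 groups, near the top of the scale. In these bulk samples, fewer hepatocytes and less RNA per hepatocyte cannot be told apart.

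A high Xist signal (12.2 to 12.4) was found in 3 animals, Xist being the RNA of the inactive X chromosome of females. They were animal 1 of the wild-type vehicle, the Atf6a-/- vehicle and the Atf6a-/- TM groups, and no wild-type TM animal was among them. Along the main axis of variation over all probe sets, wild-type TM animal 2 lay apart from its group (29.5 against -12.9 and -11.9), towards the Atf6a-/- TM animals at 114 to 120. Where a call of a named gene was lost without the 3 high-Xist arrays, or without wild-type TM animal 2, this is said beside it.

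Without stress no P450 gene was called between the genotypes. In the comparison of Atf6a-/- with wild-type vehicle livers, limma called 0 of 54 genes, beside 0% of all 18193 genes called higher and 0.00550% called lower. Only Cyp2r1, a vitamin D hydroxylase, had an unadjusted limma p under 0.05 (0.037, log2 difference 0.45 ± 0.19 SE), beside 499 of all 18193 genes. The log2 differences of the 54 genes ran from -0.52 to 0.57, with a median of 0.07.

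After 34 h of TM, more P450 genes were called lower in Atf6a-/- livers than in wild-type livers, though most leaned lower in both. The log2 response was negative for 45 of the 54 genes in wild-type and 48 in Atf6a-/- livers, beside 9891 and 9493 of all 18193 genes. In wild-type livers 9 of the 54 genes were called lower (16.7%) and 2 higher (3.7%), beside 3.86% and 3.45% of all genes. Of the same genes in Atf6a-/- livers, 31 were called lower (57.4%) and 3 higher (5.56%), beside 12.8% and 15.2% of all genes. The median log2 response of the 54 genes was -0.29 in wild-type and -1.33 in Atf6a-/- livers, against -0.02 and -0.01 over all genes. A call required an adjusted p under 0.05 in the fit over all probe sets and a change of more than 1.5-fold. Among the 40 genes above the array median, 8 fell in wild-type and 29 in Atf6a-/- livers, beside 5.68% and 19.0% of all genes above that level. The groups of 3 did not overlap for 25 of the 54 genes in wild-type livers and for 39 in Atf6a-/- livers, beside 26.8% and 47.8% of all genes. Array scaling mattered for the background: with arrays shifted by Btf3 and Ppia, 7637 of all genes were called lower and 1428 higher in Atf6a-/- livers, against 2337 and 2765 as deposited, and with arrays shifted by the spike-in probe sets 1393 were lower and 6280 higher. The P450 genes stood at 43 lower and 2 higher in the first of these and at 28 lower and 6 higher in the other.

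**Figure D1:**
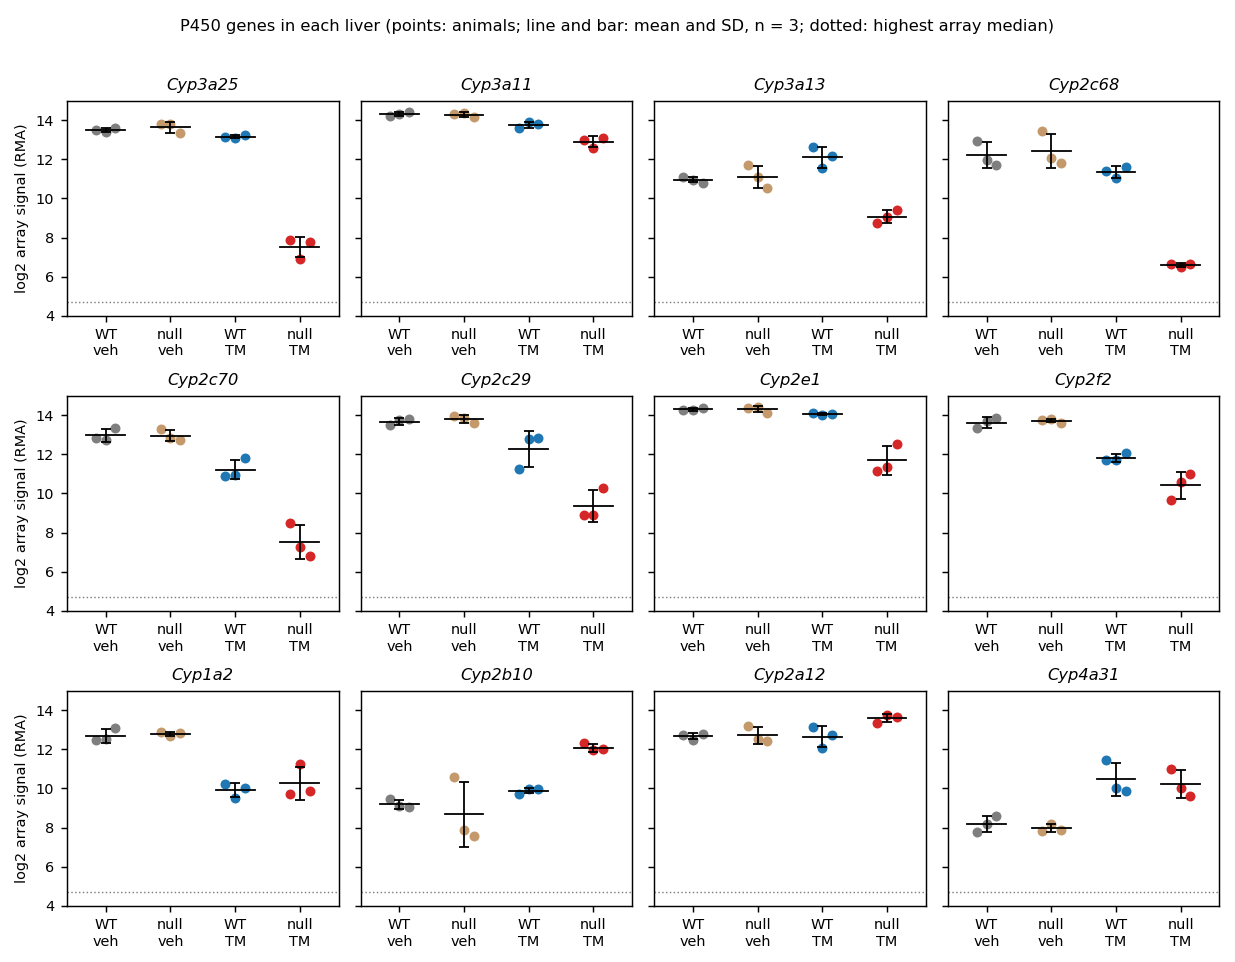
Log2 array signal of 12 P450 genes in each of the 12 livers (points), by group (WT, wild-type; null, Atf6a-/-; veh, vehicle), with mean and SD of 3 animals. Cyp3a25 and Cyp2c68 read 11.04 or more in the 9 animals of the other groups and 7.85 or less in all 3 Atf6a-/- TM livers, whereas Cyp2b10 read 11.95 or more there.

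The genotypes were compared directly in 2 ways. Set against wild-type TM livers, Atf6a-/- TM livers were called lower for 19 of the 54 genes and higher for 2, beside 8.45% and 11.3% of all genes, and lower for 12.7% of all genes above the array median. The groups did not overlap for 26 genes, beside 35.7% of all genes. The interaction term, which asks whether TM changed a gene differently in the 2 genotypes, was called for 17 of the 54 genes, all of them more negative in Atf6a-/- livers, beside 6.69% of all genes in that direction and 7.56% in the other. All 17 were above the array median, where 10.0% of all genes were called in that direction. No P450 gene had a called interaction in the positive direction. An unadjusted limma p under 0.05 in either direction was found for 29 of the 54, beside 5063 of all 18193 genes.

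**Figure D2:**
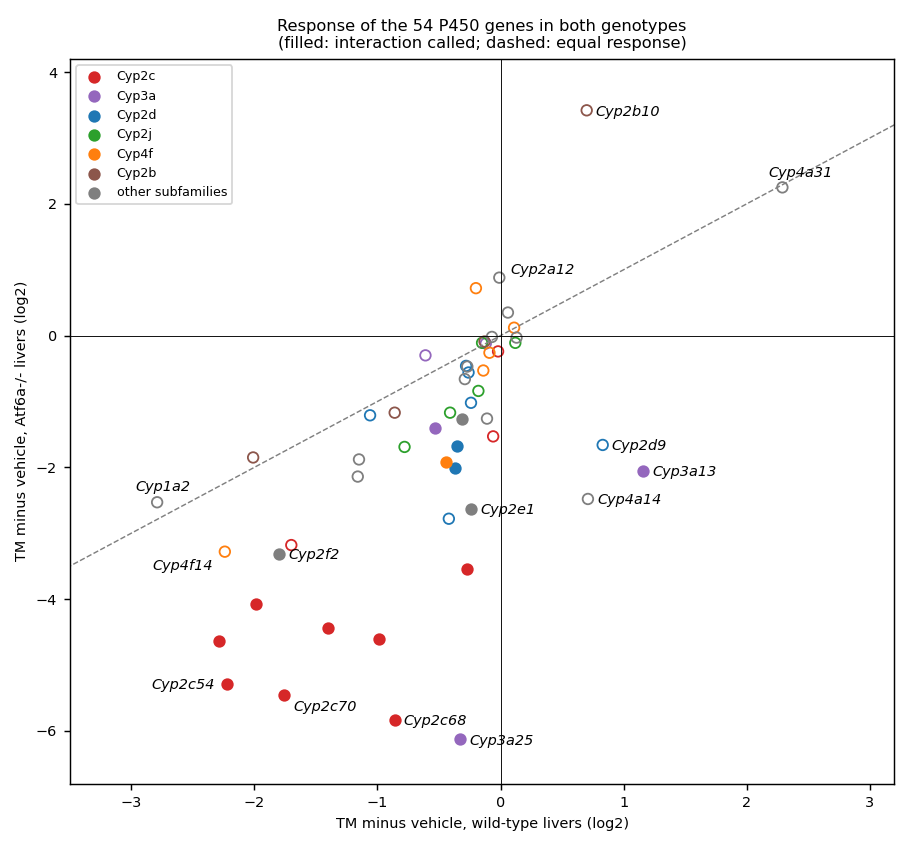
TM minus vehicle log2 difference of the 54 P450 genes in wild-type (horizontal) and Atf6a-/- livers (vertical), coloured by subfamily, filled where the interaction was called. The 8 filled Cyp2c points and 3 filled Cyp3a points lie below the dashed line of equal response, Cyp1a2 and Cyp4a31 lie close to it, and Cyp2b10 lies above it.

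The responses fell into a few combinations. TM lowered 9 genes in both genotypes, and for 5 of these, Cyp2c23, Cyp2c50, Cyp2c54, Cyp2c70 and Cyp2f2, the interaction was called as well. For the other 4, Cyp1a2, Cyp2d40, Cyp4f14 and Cyp4v3, it was not, and of these Cyp2d40 had a mean below the array median. Another 21 genes were called lower in Atf6a-/- livers and not in wild-type livers, and 11 of them had a called interaction. Cyp3a13 was called higher in wild-type and lower in Atf6a-/- livers. Cyp4a31 was called higher in both, Cyp2a12 and Cyp2b10 were called higher in Atf6a-/- livers, and 20 genes had no called response in either genotype.

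The Cyp2c subfamily, whose members metabolise drugs and turn arachidonic acid into epoxides, accounted for most of the largest falls. In Atf6a-/- livers TM lowered 10 of its 11 genes, with a median log2 response of -4.44, and in wild-type livers 4 of 11, with a median of -1.40. Of all genes, 12.8% were called lower in Atf6a-/- and 3.86% in wild-type livers. The interaction was called for 8 of 11, all more negative in Atf6a-/- livers, beside 6.69% of all genes in that direction. Cyp2c68 read 12.96, 11.96 and 11.73 in wild-type vehicle livers and 13.43, 12.05 and 11.82 in Atf6a-/- vehicle livers. After TM the wild-type livers read 11.42, 11.04 and 11.60 and the Atf6a-/- livers 6.66, 6.49 and 6.67. The 3 Atf6a-/- TM animals lay close together and far below all 9 others. Its fall was 56.7-fold in Atf6a-/- livers (log2 -5.83 ± 0.39 SE, adjusted p 5.07e-07) and was not called in wild-type livers (log2 -0.86 ± 0.39, adjusted p 0.266). The difference between these responses was -4.96 ± 0.55 (adjusted p 0.000206).

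Cyp2c70 makes the muricholic acids of mouse bile by hydroxylating chenodeoxycholic acid. It read 12.85, 12.72 and 13.35 in wild-type vehicle livers and 10.89, 10.97 and 11.80 in wild-type TM livers. It read 13.28, 12.85 and 12.76 in Atf6a-/- livers with vehicle and 8.51, 7.24 and 6.79 with TM. The TM groups did not overlap with their vehicle groups or with each other. It fell 3.38-fold in wild-type livers (adjusted p 0.0161) and 43.7-fold in Atf6a-/- livers (adjusted p 7.33e-07), and the interaction was -3.69 ± 0.54 (adjusted p 0.00117). Without wild-type vehicle animal 3, or wild-type TM animal 1 or 2, the wild-type fall was no longer called.

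Cyp2c50 and Cyp2c54, also arachidonic acid epoxygenases, fell 4.90-fold and 4.66-fold in wild-type livers and 25.0-fold and 39.2-fold in Atf6a-/- livers. Cyp2c23, another epoxygenase, went from 12.29 ± 0.26 (SD, n = 3) to 10.29 ± 0.53 in wild-type and from 12.11 ± 0.25 to 8.04 ± 0.66 in Atf6a-/- livers. Cyp2c29 read 13.49, 13.74 and 13.81 in wild-type vehicle livers and 11.24, 12.78 and 12.82 in wild-type TM livers. Its wild-type difference of -1.40 ± 0.43 was not called (adjusted p 0.0784), although the groups did not overlap. It fell 21.8-fold in Atf6a-/- livers, to 8.89, 8.90 and 10.30. Its interaction (-3.05 ± 0.60, adjusted p 0.00684) was not called without the 3 high-Xist arrays (adjusted p 0.0801). Cyp2c37 and Cyp2c38 were called in Atf6a-/- livers (24.2-fold and 11.6-fold lower) and not in wild-type livers (log2 -0.99 ± 0.33 and -0.27 ± 0.60). The interaction of Cyp2c38 (-3.28 ± 0.85, adjusted p 0.0283) was lost in 8 alternatives, 7 of which left out a single animal. Cyp2c65, outside the naming rule and named after its values were seen, was near background in every group and was the only Cyp2c gene with no call in any comparison.

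The Cyp3a genes encode the main steroid and drug hydroxylases of liver. Cyp3a25 showed the largest fall of the 54 genes in Atf6a-/- livers. It read 13.50, 13.38 and 13.59 in wild-type vehicle livers and 13.16, 13.07 and 13.24 in wild-type TM livers. It read 13.82, 13.80 and 13.33 in Atf6a-/- vehicle livers and 7.85, 6.92 and 7.78 in Atf6a-/- TM livers. Its response was -6.13 ± 0.22 in Atf6a-/- livers, a 70.3-fold fall (adjusted p 7.14e-09), and -0.33 ± 0.22 in wild-type livers (adjusted p 0.49). The interaction was -5.80 ± 0.31 (adjusted p 1.72e-06).

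Cyp3a11, a target of PXR and the classical drug-inducible Cyp3a of mice, moved in the same direction over a much shorter range. It read 14.20, 14.32 and 14.41 in wild-type vehicle, 13.60, 13.90 and 13.83 in wild-type TM, 14.34, 14.38 and 14.16 in Atf6a-/- vehicle and 12.98, 12.58 and 13.12 in Atf6a-/- TM livers. The 4 groups were stepped, with the vehicle groups overlapping and the TM groups apart. It fell 2.64-fold in Atf6a-/- livers (adjusted p 1.04e-05), while in wild-type livers the adjusted p was 0.0409 but the change of 1.45-fold was under the fold limit. The highest signal on any array was 14.91, so Cyp3a11 began near the top of the scale. Its interaction (-0.87 ± 0.20, adjusted p 0.0146) was not called without the 3 high-Xist arrays (adjusted p 0.0935).

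Cyp3a13 was the single gene of the 54 called in opposite directions. It read 11.08, 10.97 and 10.81 in wild-type vehicle livers and 12.61, 11.56 and 12.15 in wild-type TM livers. It read 11.70, 11.09 and 10.56 in Atf6a-/- vehicle livers and 8.74, 9.06 and 9.40 in Atf6a-/- TM livers. Each TM group lay outside its vehicle group, on opposite sides. The fall in Atf6a-/- livers was 4.14-fold (adjusted p 0.0002), and the interaction was -3.21 ± 0.42 (adjusted p 0.000581). The wild-type rise of 2.23-fold (adjusted p 0.0377) was lost when any of 7 single animals was left out, among them wild-type TM animal 1 and each wild-type vehicle animal, with log2 values of 0.90 to 1.51 over all alternatives. Cyp3a16 and Cyp3a44 were below the array median and were not called.

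Promoters are shown for the 2 genes of largest fall in these clusters, for Cyp2c70 and Cyp3a11, which fell by very different amounts, and for Cyp2b10, which rose. Promoter windows from RefSeq (assembly GRCm38.p6, 300 bases that reach from upstream of the transcript start to just past it) matched 43 of the 54 genes in 49 windows. The windows below lie at chr5:146009568-146009867 (minus strand) for Cyp3a25, chr19:39741052-39741351 (minus strand) for Cyp2c68, chr19:40187237-40187536 (minus strand) for Cyp2c70, chr5:145879805-145880104 (minus strand) for Cyp3a11 and chr7:25897408-25897707 (plus strand) for Cyp2b10. Each is written from 5′ to 3′ along its gene. Capitals mark matches, on either strand, to AGGTCA (a core bound by nuclear receptors), CAAAGTCC (an HNF4α core), GTTAAT (part of the HNF1 motif) or TTGCNNAA (a C/EBP-like motif). Other searched motifs are left in lower case.
Cyp3a25: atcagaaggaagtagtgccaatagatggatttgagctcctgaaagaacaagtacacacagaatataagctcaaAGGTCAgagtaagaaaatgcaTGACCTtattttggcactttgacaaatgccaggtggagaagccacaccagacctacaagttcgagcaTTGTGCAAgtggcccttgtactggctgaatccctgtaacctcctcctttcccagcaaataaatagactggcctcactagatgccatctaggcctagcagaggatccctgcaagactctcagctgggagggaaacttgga
Cyp2c68: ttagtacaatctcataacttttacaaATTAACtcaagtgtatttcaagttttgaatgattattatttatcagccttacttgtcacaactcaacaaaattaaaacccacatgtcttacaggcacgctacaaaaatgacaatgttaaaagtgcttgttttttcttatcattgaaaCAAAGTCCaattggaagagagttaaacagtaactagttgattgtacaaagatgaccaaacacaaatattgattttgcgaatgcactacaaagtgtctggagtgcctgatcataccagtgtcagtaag
Cyp2c70: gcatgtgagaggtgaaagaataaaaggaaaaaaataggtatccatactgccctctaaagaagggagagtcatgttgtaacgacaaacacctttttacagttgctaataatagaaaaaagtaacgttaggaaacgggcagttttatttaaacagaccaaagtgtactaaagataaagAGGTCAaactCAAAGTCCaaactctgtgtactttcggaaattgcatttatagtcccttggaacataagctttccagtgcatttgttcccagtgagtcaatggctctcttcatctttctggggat
Cyp3a11: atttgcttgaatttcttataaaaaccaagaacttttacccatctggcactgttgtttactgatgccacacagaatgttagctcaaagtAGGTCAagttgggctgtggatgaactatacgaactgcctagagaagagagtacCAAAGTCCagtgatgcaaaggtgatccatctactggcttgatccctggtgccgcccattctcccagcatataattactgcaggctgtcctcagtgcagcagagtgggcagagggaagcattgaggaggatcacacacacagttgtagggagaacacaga
Cyp2b10: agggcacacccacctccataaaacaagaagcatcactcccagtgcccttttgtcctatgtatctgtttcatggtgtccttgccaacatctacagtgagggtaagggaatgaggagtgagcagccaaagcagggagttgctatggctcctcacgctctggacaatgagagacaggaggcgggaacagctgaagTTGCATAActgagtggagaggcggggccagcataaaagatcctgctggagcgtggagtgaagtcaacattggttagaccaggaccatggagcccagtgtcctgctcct

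Cyp2c68, Cyp2c70 and Cyp3a11 each held CAAAGTCC, and Cyp2c70 and Cyp3a11 also held AGGTCA upstream of it. Cyp3a25 held AGGTCA at 2 places and no CAAAGTCC, and Cyp2b10 held only the C/EBP-like motif among the 4. Over the 49 windows CAAAGTCC occurred in 6 (12.2%), beside 1.42% of all 32851 RefSeq windows of this length. These were windows of Cyp2c65, Cyp2c68, Cyp2c70, Cyp3a11, Cyp3a16 and Cyp4f18, of which Cyp2c65, Cyp3a16 and Cyp4f18 were near background in these livers. Windows of related genes share sequence and are not independent. AGGTCA occurred in 26.5% of the 49 windows beside 16.3% of all, TTGCNNAA in 24.5% beside 10.8%, GTTAAT in 6.12% beside 7.1% and the TATA box TATAAA in 36.7% beside 13.6%. The xenobiotic response core GCGTG, bound by the aryl hydrocarbon receptor, occurred in 24.5% beside 32.4%, CCAAT in 51% beside 37.4% and the cAMP response core TGACG in 4.08% beside 20.8%. On the opposite strand AGGTCA reads TGACCT, which shares TGAC with TGACG. A match says only that these letters are present.

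**Figure D3:**
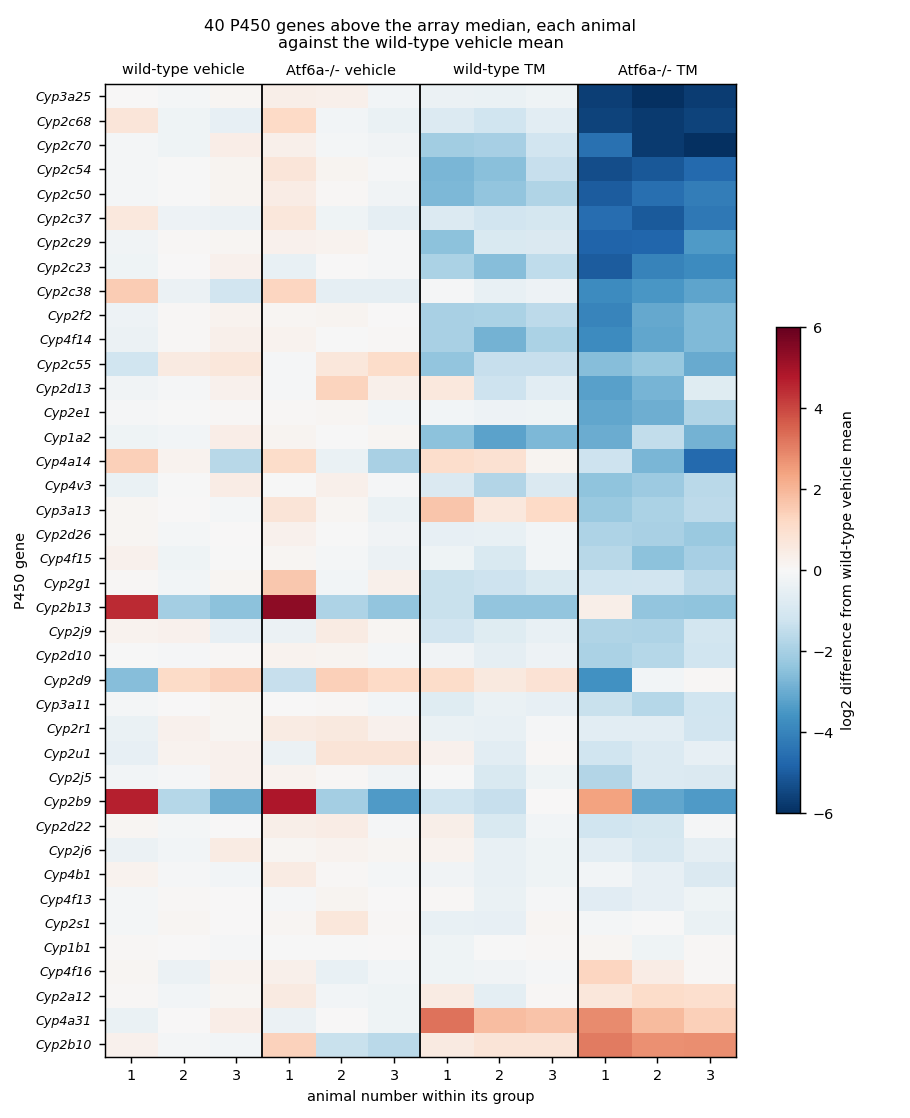
Log2 signal of the 40 P450 genes above the array median in each of the 12 animals, as the difference from the wild-type vehicle mean (blue lower, red higher), ordered by the response in Atf6a-/- livers. The 3 Atf6a-/- TM columns are darkest for Cyp3a25, Cyp2c68 and Cyp2c70, and Cyp2b9, Cyp2b13 and Cyp2d9 differ in animal 1 of 3 groups.

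Cyp2e1, which oxidises ethanol and activates paracetamol, was lowered in Atf6a-/- livers and not called in wild-type livers. It read 14.26, 14.28 and 14.40 in wild-type vehicle, 14.13, 14.00 and 14.07 in wild-type TM, 14.39, 14.42 and 14.13 in Atf6a-/- vehicle and 11.17, 11.38 and 12.52 in Atf6a-/- TM livers. The 9 other animals lay between 14.00 and 14.42, and the 3 Atf6a-/- TM animals were all below them. Like Cyp3a11 it began near the top of the scale (mean 14.31 in wild-type vehicle livers), where array signals are compressed. The fall was 6.17-fold (adjusted p 1.13e-05), against -0.24 ± 0.26 in wild-type livers, and the interaction was -2.38 ± 0.37 (adjusted p 0.00176).

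Cyp1a2 and Cyp2f2 showed a large fall in wild-type livers too. Cyp1a2, which metabolises caffeine and aromatic amines, read 12.46, 12.54 and 13.12 in wild-type vehicle livers and 10.23, 9.52 and 10.01 in wild-type TM livers. Atf6a-/- livers gave 12.89, 12.70 and 12.82 with vehicle and 9.71, 11.25 and 9.87 with TM. The 2 TM groups overlapped. It fell 6.91-fold in wild-type livers (adjusted p 0.0005), the largest called fall there, and 5.77-fold in Atf6a-/- livers (adjusted p 0.00012). The interaction of 0.26 ± 0.49 was not called (adjusted p 0.848), and with this SE a moderate difference in response could not be detected. Cyp2f2, which activates naphthalene, went from 13.34, 13.70 and 13.85 to 11.70, 11.72 and 12.07 in wild-type livers and from 13.75, 13.80 and 13.63 to 9.67, 10.58 and 11.00 in Atf6a-/- livers. It fell 3.48-fold and 9.92-fold, with an interaction of -1.51 ± 0.38 (adjusted p 0.0245) that missed the threshold when wild-type vehicle animal 1, Atf6a-/- vehicle animal 2 or wild-type TM animal 3 was left out. Cyp1a1, the inducible target of the aryl hydrocarbon receptor, and Cyp1b1, mainly an extrahepatic enzyme, were close to background and were not called.

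TM lowered 5 of 8 Cyp2d genes in Atf6a-/- livers (median -1.43) and 1 of 8 in wild-type livers (median -0.32). Of all genes, 12.8% and 3.86% were called lower there. The wild-type call was Cyp2d40, whose mean over the 12 arrays lay below the array median. Cyp2d26 went from 13.87, 13.58 and 13.43 to 11.78, 11.66 and 11.41 in Atf6a-/- livers, a 4.03-fold fall (adjusted p 8.07e-07), and from 13.62 ± 0.14 to 13.25 ± 0.18 in wild-type livers. Its interaction was -1.64 ± 0.20 (adjusted p 0.000379). Cyp2d22, a relative of the human drug-metabolising CYP2D6, was called lower in Atf6a-/- livers by a narrow margin (2.03-fold, adjusted p 0.0335). That call was lost without Atf6a-/- vehicle animal 1 or 2 or Atf6a-/- TM animal 1 or 2, and without the high-Xist arrays.

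Of the 5 Cyp2j genes, whose products make epoxides of arachidonic acid, 3 fell in Atf6a-/- livers, beside 12.8% of all genes. None was called in wild-type livers or for the interaction on its brightest probe set. Cyp2j5 fell 2.26-fold in Atf6a-/- livers, from 12.21 ± 0.22 to 11.04 ± 0.55, a call lost without the 3 high-Xist arrays, and Cyp2j6 fell 1.79-fold. A second, dimmer probe set of Cyp2j5 fell by 2.37 log2 units in Atf6a-/- livers, and on it the interaction was called (-1.72, adjusted p 0.015), as was the lower level in Atf6a-/- than in wild-type TM livers (-1.85, adjusted p 0.000546). The Atf6a-/- TM and wild-type TM groups did not overlap for Cyp2j6, but its difference of -0.53 ± 0.21 was not called (adjusted p 0.123). On its dimmer probe set that difference was -1.11 and was called (adjusted p 0.0255), and it was also called on the mean of both probe sets. The fatty acid hydroxylase gene Cyp2u1 and Cyp4b1 were also called lower in Atf6a-/- livers, by 2.39-fold and 1.58-fold. Cyp2g1, known from olfactory tissue, was called lower (log2 -1.88 ± 0.34), to a mean of 4.58 that lay below the array median. The Cyp4b1 call was lost without Atf6a-/- vehicle animal 1 or Atf6a-/- TM animal 3, and that of Cyp2u1 without Atf6a-/- vehicle animal 2 or 3 or Atf6a-/- TM animal 1. Cyp2r1 fell 2.39-fold in Atf6a-/- livers (adjusted p 0.000313), but its interaction (-0.95 ± 0.27, adjusted p 0.0463) was lost in 15 alternatives, the fit without the 3 high-Xist arrays among them. Cyp2s1 and Cyp4x1 were not called in any comparison.

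Cyp4f14, which inactivates leukotriene B4, went from 10.75, 11.18 and 11.42 to 9.17, 8.27 and 9.19 in wild-type livers and from 11.34, 11.08 and 11.18 to 7.32, 7.98 and 8.46 in Atf6a-/- livers. It fell in both, 4.71-fold and 9.72-fold, and the TM groups overlapped. Cyp4v3, a fatty acid hydroxylase, fell 2.23-fold and 4.40-fold, and the wild-type fall was not called when vehicle animal 2 or 3 or TM animal 2 of that genotype was left out. Neither had a called interaction, and their lower level in Atf6a-/- TM than in wild-type TM livers (adjusted p 0.0428 and 0.0408) was lost in 13 alternatives each, the fit without the 3 high-Xist arrays among them. Without wild-type TM animal 2, by contrast, both interactions were called, and that of Cyp4v3 was also called on its second probe set, which has no s suffix (log2 -1.25, adjusted p 0.038). Cyp4f15 fell 3.78-fold in Atf6a-/- livers and was not called in wild-type livers (log2 -0.44 ± 0.24), with an interaction of -1.48 ± 0.34 (adjusted p 0.0158).

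TM raised 4 P450 genes in at least 1 genotype, Cyp3a13 among them. Cyp2b10, the standard target gene of CAR, read 9.46, 9.08 and 9.04 in wild-type vehicle livers and 9.72, 9.98 and 9.98 in wild-type TM livers. It read 10.58, 7.86 and 7.57 in Atf6a-/- vehicle livers and 12.33, 11.95 and 12.00 in Atf6a-/- TM livers. All 3 Atf6a-/- TM animals were above the 9 others. The rise was 10.7-fold in Atf6a-/- livers (adjusted p 0.00063), and the level after TM was 4.59-fold higher than in wild-type (adjusted p 0.0181). The wild-type difference of 0.70 ± 0.58 and the interaction of 2.72 ± 0.82 (adjusted p 0.0551) were not called. The interaction was called in 8 of 25 alternatives, among them the shifts by Btf3 and Ppia and by the spike-in probe sets. The level after TM was not called without wild-type TM animal 1 or 3 or Atf6a-/- TM animal 1, nor on 1 of the 3 probe sets of the gene. Atf6a-/- vehicle animal 1, a high-Xist animal, lay well above its group. Without the 3 high-Xist arrays the interaction was 3.43 ± 0.19 (adjusted p 9.8e-05) and was called, as was a 1.78-fold rise in wild-type livers.

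Cyp2a12, a bile acid hydroxylase, read 13.37, 13.76 and 13.68 in Atf6a-/- TM livers, 13.22, 12.52 and 12.43 in Atf6a-/- vehicle livers and 13.15, 12.08 and 12.75 in wild-type TM livers. The rise of 1.84-fold (adjusted p 0.0238) was small, and it was lost without Atf6a-/- vehicle animal 2 or 3 or Atf6a-/- TM animal 2 or 3, and when arrays were scaled to the reference genes Btf3 and Ppia. Its level after TM was 1.92-fold higher than in wild-type livers (adjusted p 0.0239), a call that was lost in 7 alternatives. Without wild-type TM animal 2 that difference was 0.65 on the log2 scale (adjusted p 0.0675), and it was also not called without wild-type TM animal 3 or Atf6a-/- TM animal 2 or 3. Cyp4a31, of a subfamily of fatty acid hydroxylases under PPARα control, rose to a like extent in both genotypes. It read 7.75, 8.18 and 8.59 in wild-type vehicle and 11.45, 10.04 and 9.89 in wild-type TM livers, and 7.83, 8.19 and 7.90 in Atf6a-/- vehicle and 11.01, 10.05 and 9.61 in Atf6a-/- TM livers. The rises were 4.89-fold (adjusted p 0.00569) and 4.74-fold (adjusted p 0.00125), with an interaction of -0.04 ± 0.59 (adjusted p 0.985).

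The Cyp4a readings were not uniform across probe sets. A second probe set of Cyp4a31 moved the same way, by 2.19 and 2.40 log2 units. A probe set that binds both Cyp4a31 and Cyp4a10, and is therefore outside the 54 genes, went from 13.12 to 9.95 in Atf6a-/- livers (log2 -3.17, adjusted p 6.73e-07) and from 13.36 to 13.45 in wild-type livers. Which of the 2 genes that probe set reports is uncertain. Cyp4a14, another fatty acid hydroxylase, read 13.32, 12.12 and 10.23 in wild-type vehicle and 12.95, 12.79 and 12.05 in wild-type TM livers. It read 12.99, 11.50 and 9.93 in Atf6a-/- vehicle and 10.63, 9.13 and 7.22 in Atf6a-/- TM livers. Animals varied widely within each group but the wild-type TM group, and the TM groups did not overlap. It was 12.2-fold lower in Atf6a-/- than in wild-type TM livers (adjusted p 0.0188). Leaving out wild-type TM animal 1 or Atf6a-/- TM animal 3 ended that call. The response in Atf6a-/- livers of -2.48 ± 0.95 was not called (adjusted p 0.0762). With the Xist signal as a covariate it was called (-2.43, adjusted p 0.0026), and so was the interaction (-3.88, adjusted p 0.00485). The response was also called in 5 other alternatives, among them those without Atf6a-/- vehicle animal 3 or Atf6a-/- TM animal 1.

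Some genes followed the Xist signal more than the treatment. Cyp2b9, Cyp2b13 and Cyp2d9, known for sex-biased expression in mouse liver, were chosen here after their values had been seen. Cyp2b9 read 12.20, 12.42 and 9.96 in the 3 high-Xist animals (wild-type vehicle, Atf6a-/- vehicle and Atf6a-/- TM) and 4.14 to 7.55 in the other 9. Cyp2b13 read 11.82, 12.69 and 7.70 in the high-Xist animals and at most 5.98 in the others. Cyp2d9 ran the other way, with 9.69, 10.83 and 8.59 in the high-Xist animals and 12.05 or more in the others. Against the low-Xist animals of their own groups the mean differences were 6.74 for Cyp2b9, 5.66 for Cyp2b13 and -3.37 for Cyp2d9. These 3 genes had no call in the fit of all 12 arrays. Among low-Xist animals alone, Cyp2b9 was called lower in Atf6a-/- than in wild-type TM livers (log2 -2.39 ± 0.53, adjusted p 0.0163), with Atf6a-/- TM values of 4.45 and 4.15 below the array median. Its response to TM was not called in either genotype there (log2 -0.52 ± 0.58 in Atf6a-/- and 1.46 ± 0.53 in wild-type livers). Nor was its interaction (-1.98 ± 0.79, adjusted p 0.201). In the same animals Cyp2d9 was 2.57-fold lower after TM in Atf6a-/- livers (adjusted p 0.000974) and not called in wild-type livers (log2 -0.44 ± 0.17, adjusted p 0.237). The interaction of Cyp2d9 was not called there (-0.92 ± 0.26, adjusted p 0.0699). Its lower level in Atf6a-/- than in wild-type TM livers was called (-0.88 ± 0.17, adjusted p 0.0093). The 2 high-Xist vehicle animals also had the 2 highest readings of Cyp2c37, Cyp2c38 and Cyp2c68 among all 12 animals.

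**Figure D4:**
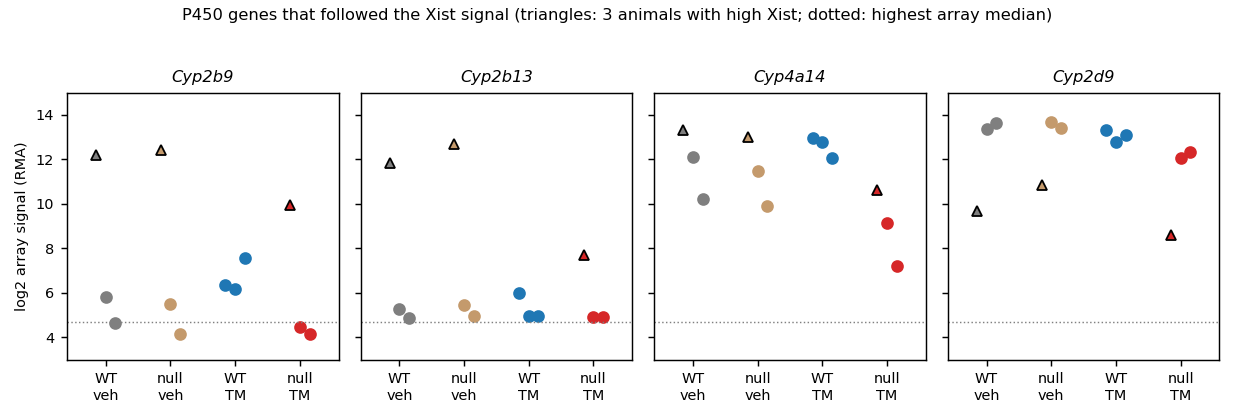
Log2 signal of Cyp2b9, Cyp2b13, Cyp4a14 and Cyp2d9 in each animal by group (WT, wild-type; null, Atf6a-/-; veh, vehicle), with triangles for the 3 animals of high Xist signal. Triangles lie above the other animals of their group for Cyp2b9, Cyp2b13 and Cyp4a14 and below them for Cyp2d9.

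Genes that P450 enzymes depend on were examined as fixed lists, which were drawn up with earlier results of these data known. Of 5 measured electron partners, 2 were called lower in wild-type livers and 3 in Atf6a-/- livers, beside 3.86% and 12.8% of all genes. Cyb5r3, a cytochrome b5 reductase, fell 2.23-fold in wild-type and 3.56-fold in Atf6a-/- livers, and Cyb5b 2.23-fold and 3.83-fold. Cyb5a, the microsomal cytochrome b5, changed by less than the fold limit (log2 -0.47 ± 0.12 and -0.53 ± 0.12), and Pgrmc2 was not called. P450 reductase was not analysed here.

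Heme enzymes moved in both directions. Of 7 measured heme synthesis genes, 1 was called lower in wild-type livers, beside 3.86% of all genes. In Atf6a-/- livers 5 were called lower and 1 higher, beside 12.8% and 15.2% of all genes. Alas1, the rate-limiting enzyme, went from 12.51 to 11.56 in wild-type livers on average (not called, adjusted p 0.0964) and from 11.95 to 8.61 in Atf6a-/- livers, a 10.1-fold fall (adjusted p 5.73e-06). Ppox, the penultimate enzyme of the pathway, was the gene called higher. Of 4 heme breakdown genes, limma called 0 in wild-type livers, where the log2 responses ran from -0.59 to 0.49. In Atf6a-/- livers the heme oxygenases Hmox1 and Hmox2 rose 4.61-fold and 2.24-fold, while the biliverdin reductases Blvra and Blvrb fell 4.06-fold and 3.06-fold.

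**Figure D5:**
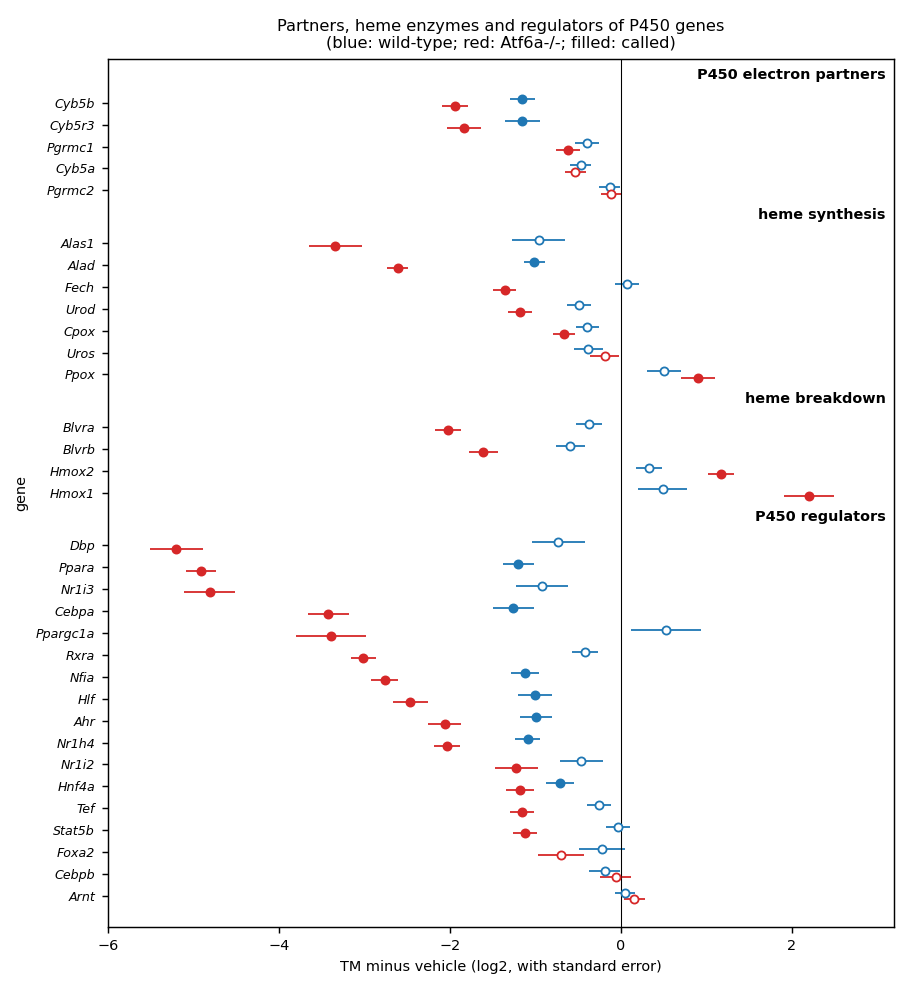
TM minus vehicle log2 difference with its standard error in wild-type (blue) and Atf6a-/- livers (red) for electron partners, heme enzymes and regulators of P450 genes, filled where called. Most regulators lie further to the left in Atf6a-/- than in wild-type livers, and Arnt and Cebpb lie near 0 in both.

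Regulators of P450 transcription were mostly lowered in Atf6a-/- livers. Of 17 measured regulators 7 were called lower in wild-type livers and 14 in Atf6a-/- livers, beside 3.86% and 12.8% of all genes. Their median log2 responses were -0.71 and -2.06. The interaction was called for 12, all more negative in Atf6a-/- livers, beside 6.69% of all genes in that direction. Ppara fell 2.30-fold in wild-type and 30.0-fold in Atf6a-/- livers. The CAR gene Nr1i3 was not called in wild-type livers (adjusted p 0.106) and fell 28.0-fold in Atf6a-/- livers. Rxra, their shared partner, fell 8.08-fold in Atf6a-/- livers. Hnf4a fell 1.64-fold and 2.27-fold, with no called interaction (-0.47 ± 0.23, adjusted p 0.261). Cebpa fell 2.40-fold and 10.7-fold. Arnt, the partner of the aryl hydrocarbon receptor, Cebpb and Foxa2 were not called in either genotype. Nr1i3 and its target Cyp2b10 thus moved in opposite directions in Atf6a-/- livers.

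Zonal genes of hepatocytes were set beside these values. Of 10 pericentral genes other than P450 genes, wild-type livers had 7 called lower and Atf6a-/- livers 9, beside 3.86% and 12.8% of all genes. Glul, glutamine synthetase of the innermost pericentral cells, fell 9.71-fold and 17.2-fold. Of 7 measured periportal genes, limma called 0 in wild-type livers, where the lowest adjusted p was 0.101 (Ass1), and 5 were called lower in Atf6a-/- livers, among them Pck1, an enzyme of glucose synthesis, by 58.0-fold. The mean log2 level of the pericentral list ran from 9.72 to 10.15 over the 6 vehicle animals, from 8.25 to 8.45 in wild-type TM and from 7.21 to 7.42 in Atf6a-/- TM livers. Cyp1a2 and Cyp2e1 are known as pericentral genes and Cyp2f2 as periportal.

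Markers of cell types were read in the same fit. Of all genes, 3.86% were called lower and 3.45% higher in wild-type livers. In Atf6a-/- livers these shares were 12.8% and 15.2%. Of 8 measured hepatocyte markers, 1 was called lower in wild-type and 5 in Atf6a-/- livers, with mean log2 levels of 14.04 to 14.26 over vehicle animals, 13.57 to 13.98 in wild-type TM and 12.88 to 13.23 in Atf6a-/- TM livers. The median log2 response of these hepatocyte markers was -0.23 in wild-type and -0.97 in Atf6a-/- livers. Among those not called, Alb fell by 0.48 log2 units in Atf6a-/- livers, under the fold limit, and Ahsg by less (log2 -0.06 ± 0.15). Of 8 neutrophil markers, S100a8 rose in wild-type livers, and S100a8 and S100a9 rose in Atf6a-/- livers, where their means were 9.52 and 9.07. The list ran from 5.02 to 5.82 over vehicle animals, 5.53 to 6.23 in wild-type TM and 6.17 to 7.07 in Atf6a-/- TM livers, and Mpo, Cxcr2 and Camp were below the array median in every group. Of 10 Kupffer cell and macrophage markers, 4 fell and 1 rose in wild-type livers and 6 fell and 2 rose in Atf6a-/- livers, with mean levels of 8.06 to 8.61 over vehicle, 7.54 to 8.09 in wild-type TM and 7.72 to 8.24 in Atf6a-/- TM animals. In Atf6a-/- livers 1 of 8 lymphocyte, 3 of 10 endothelial, 3 of 10 stellate cell and fibroblast, 0 of 5 cholangiocyte and 1 of 3 red cell markers were called lower and none higher. In wild-type livers 1 stellate cell and fibroblast marker was called lower and no marker of the other 4 lists. The 1 lymphocyte call of 8 in Atf6a-/- livers lies near the share of all genes. The part of cell composition in the P450 values was not tested.

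The 17 measured P450 genes of other families, which mainly make and break down sterols and bile acids, were compared in the same fit. In Atf6a-/- livers 7 were called lower (41.2%) and 1 higher (median log2 -0.22), beside 12.8% and 15.2% of all genes. In wild-type livers 3 were called lower (17.6%) and 1 higher (median 0.04), beside 3.86% and 3.45% of all genes. The interaction was called for 5, all more negative in Atf6a-/- livers, beside 6.69% of all genes in that direction. Whether the difference between these families and families 1 to 4 exceeds chance was not tested.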

How the data were processed

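Liver RNA of 12 mice was hybridised to Affymetrix whole-genome mouse arrays. The deposited log2 values were made by the authors with RMA, which corrects background, quantile-normalizes arrays and summarises probes. The labels also name affy and limma, and versions are not given in the sources used here. RMA compresses changes near background and near saturation, and the number of arrays limits the precision. Of 45101 features, 64 control probe sets were left out and 45037 were fitted with limma 3.58.1 (R 4.3.3) as 4 group means, with 5 contrasts, Benjamini-Hochberg adjustment within each, and a call at adjusted p under 0.05 and over 1.5-fold. All limma p-values are two-sided. Gene names came from the platform annotation, in which 34945 probe sets had 1 symbol, 932 had several and 9160 had none, and a gene was read from its single-symbol probe set of highest mean. Genes were named where they were on a fixed list, had the highest mean of their subfamily, were among the 5 largest called changes in either direction of a contrast, or were called against the majority or in opposite directions. Cyp2c65, Cyp2d40, Cyp3a16, Cyp3a44 and Cyp4f18 fall outside this rule, as do Cyp2b9, Cyp2b13 and Cyp2d9. The members and lists were chosen with earlier results of these data known. The fit was tested on simulated data. Alternatives covered scaling, filtering, moderation, test, sex, probe set and each animal left out. Summaries used Python 3.11.15 with numpy 2.4.6 and pandas 2.3.3, and figures used matplotlib 3.10.9.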

Additional observations from a re-analysis of the deposited data

Results flagged for a closer look

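The response to TM differed between the genotypes, by the interaction term of the limma fit, for 17 P450 genes of families 1 to 4, and 16 of them fell under the rule for named genes. Their interactions, as the log2 response in Atf6a-/- livers minus that in wild-type livers, were -5.80 for Cyp3a25, -4.96 for Cyp2c68, -3.69 for Cyp2c70, -3.60 for Cyp2c37, -3.28 for Cyp2c38, -3.21 for Cyp3a13, -3.07 for Cyp2c54 and -3.05 for Cyp2c29. They were -2.38 for Cyp2e1, -2.35 for Cyp2c50, -2.08 for Cyp2c23, -1.64 for Cyp2d26, -1.51 for Cyp2f2, -1.48 for Cyp4f15, -0.95 for Cyp2r1 and -0.87 for Cyp3a11. Cyp2d10, not under that rule, had an interaction of -1.33 ± 0.24 SE.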

How the results depend on the processing

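The methods' t-test with Benjamini-Hochberg adjustment called 0 P450 genes in wild-type livers, where of all 18193 genes it called 1 higher and 0 lower. It called 7 P450 genes between the genotypes after TM, beside 325 of all genes higher and 405 lower. With limma these P450 counts were 11 and 21. Without adjustment the t-test called 15 and 20, beside 639 of all genes higher and 823 lower, and 1837 higher and 1459 lower. With arrays shifted by Btf3 and Ppia, 36 P450 genes were called between the genotypes after TM and 28 for the interaction, while of all genes 4461 were lower and 849 higher, against 1538 and 2048 as deposited, and 2603 and 447, against 1218 and 1376. The median log2 difference of all genes was -0.53 in Atf6a-/- livers and -0.43 for the interaction under that shift and 0.46 and 0.14 under the spike-in shift, against -0.01 and 0.01 as deposited. Under 5 scalings no called P450 gene changed sign, and 11 of 11 wild-type, 30 of 34 Atf6a-/-, 20 of 21 genotype and 15 of 17 interaction calls were kept in all 5. Leaving out each animal in turn gave 8 to 13 calls in wild-type livers, 31 to 35 in Atf6a-/- livers, 17 to 22 between the genotypes after TM, 0 to 1 after vehicle and 14 to 19 for the interaction. The 1 after vehicle was Cyp2b10, without Atf6a-/- vehicle animal 1. Of all genes, these fits called 473 to 689 higher and 470 to 711 lower in wild-type livers. In Atf6a-/- livers they called 2525 to 2837 higher and 2188 to 2359 lower. Between the genotypes they called 1592 to 2440 higher and 1342 to 1704 lower after TM, and 0 to 3 lower after vehicle. For the interaction they called 891 to 2014 higher and 937 to 1475 lower, the most without wild-type TM animal 2. Without the 3 high-Xist arrays the P450 counts were 14, 34, 22, 0 and 16, in the same order. Of all genes, that fit called 463 higher and 699 lower in wild-type livers and 2664 and 2135 in Atf6a-/- livers. Between the genotypes it called 1860 and 1459 after TM and 0 after vehicle, and for the interaction 971 and 871. The main fit did not treat animals of the same number as pairs. Same-numbered animals of different groups correlated at -0.18 to 0.373 in their deviations, and others at -0.353 to 0.221. These ranges overlap and cannot exclude pairing, and the 3 high-Xist animals all had the same number. With the number as a replicate block the P450 counts were 13, 36, 23, 0 and 19. Of all genes, that fit called 672 higher and 744 lower in wild-type livers and 2815 and 2362 in Atf6a-/- livers. Between the genotypes it called 2104 and 1587 after TM and 0 and 1 after vehicle, and for the interaction 1456 and 1267. The P450 calls gained included Cyp4a14 in Atf6a-/- livers (log2 -2.48, adjusted p 0.000579) and for the interaction (-3.19, adjusted p 0.00428). The t-test and the fits on only the groups of a contrast give no interaction value. The cause of these shifts was not tested. With 3 animals a group, and 14 genes with a mean below the array median, small changes could not be detected.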
